A study of Saccharomyces cerevisiae with 18 samples.

Results

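The poly(A) mRNA pool of a heat-shifted yeast hybrid was compared between 42 min and 24 min after the shift, in 3 independent cultures at each time, paired by culture. The cells were a hybrid diploid of Saccharomyces cerevisiae whose parents were BY4716 (BY), a laboratory strain, and RM11-1a (RM), from a vineyard. The rpb1-1 allele came from each parent, so that every library is from cells without a wild-type copy of RPO21, which encodes the catalytic subunit Rpb1 of RNA polymerase II. This allele makes the polymerase temperature-sensitive. Cultures grew in rich glucose medium (YEPD) at 24 °C and were brought to 37 °C with medium of 50 °C, and each culture was sampled 6 times, the last samples being those of 24 and 42 min. The 42 min and 24 min groups differed only in the time held at 37 °C. Of the 18 libraries of the series, 6 belong to these groups. Reads that cover a single-nucleotide variant (SNV) between the parents were summed over both alleles and all SNVs of a transcript feature. Of 3974 features, 2717 averaged at least 20 such reads per library in the 6 libraries and were tested. They held 99.0% of the reads. The other 1257 features were not tested, and 2002 of the tested features held 1 annotated gene.

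The libraries of 42 min held 665992 to 944577 allelic reads and those of 24 min 711957 to 931117. Values are shares of the pool, given as CPM (reads per 1000000 reads of the library) after scaling each library with its TMM factor. A feature whose share rose may have gained RNA or lost less than the rest, and in bulk RNA fewer cells holding a transcript and less of it per cell cannot be told apart. Reads per feature grow with its number of SNVs, so levels are compared between times and not between genes. The diploid state of the label was checked with haploid-specific genes. The 9 of them that form features of their own were summed as CPM of library totals, without the TMM factor. They held 97.4 to 104.6 CPM at 42 min and 125.7 to 199.5 CPM at 24 min. FAR1 gave most of their reads, 168 over the 3 libraries of 42 min and 258 over those of 24 min. The receptor gene STE3 had 1 read at 42 min and 0 at 24 min. Others lie in features joined with neighbouring genes, where the genes cannot be told apart. At 42 and 24 min such features held 11406 and 11197 reads for STE6, 458 and 537 for STE2 and 265 and 329 for MATALPHA1. Changes in culture 2 were smaller than in the others. The SD of the log2 change across features was 0.62, 0.41 and 0.58 in cultures 1 to 3. The feature BPL1/RPO21, which overlaps the mutated gene, had 1665, 1706 and 1919 CPM at 42 min, against 1808, 1822 and 2087 CPM at 24 min (log2 change -0.11 ± 0.09, adjusted p = 0.37), and was lower in each culture. Scaled by library totals it passed the test (-0.26, adjusted p = 0.027 in edgeR).

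With RNA polymerase II inactivated, a transcript's share of the pool depends on how fast it is degraded relative to others, and on whatever synthesis goes on. In yeast, heat activates the transcription factors Hsf1 and Msn2/Msn4. Hsf1 binds heat shock elements in front of chaperone genes, and Msn2/Msn4 bind the stress response element (STRE, AGGGG) in front of many genes of the general stress response. Genes for ribosome assembly often carry the PAC element (GATGAG), and the RNA-binding protein Puf3 binds TGTANATA downstream of the stop codon of mRNAs for mitochondrial proteins.

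The following 30-base windows of the R64 (sacCer3) reference genome show these elements at genes whose values are described below. Each is printed 5′ to 3′ on the strand of the gene, with the element in capitals. The STRE of TKL2 and FMP16, a pair of strongly rising genes, and of the vacuolar peptidase gene APE1 reads CCCCT here, the reverse complement.

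TKL2 STRE, chrII:476497-476526, minus strand: caattggcttgtCCCCTcttactgtagtct
FMP16 STRE, chrIV:588563-588592, minus strand: ttcctgtatcaaCCCCTtcttcctgtacag
APE1 STRE, chrXI:247809-247838, minus strand: atagttgacacaCCCCTtaatcgttccatt

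The chaperone genes SSE2, BTN2 and HSP78 hold a pair of heat shock half-sites facing apart (TTCNNGAA). In SSE2 an STRE follows in the same window, in lower case.

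SSE2 heat shock element, chrII:576215-576244, minus strand: atagtagacgtTTCTAGAAcgtccccttac
BTN2 heat shock element, chrVII:772364-772393, plus strand: atattttcttcTTCTTGAAagaaatatcag
HSP78 heat shock element, chrIV:974462-974491, minus strand: tttccagaatgTTCTAGAAgtgttctttca

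LTV1, of 40S subunit assembly, and SRP40, a nucleolar protein gene, both lower at 42 min, have a PAC element, which reads CTCATC in SRP40. MRP49, of the mitochondrial ribosome, and HSP60, the mitochondrial chaperonin gene, both higher at 42 min, have a Puf3 element behind the stop codon. Element and direction did not always go together as in these examples. AGGGG also occurs in the promoters of LTV1, EMI2 and RNR4, which fell, and GATGAG in those of FAT3 and TAT1, which rose.

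LTV1 PAC, chrXI:176658-176687, plus strand: aaaattttaagcGATGAGcatcgcctgaat
SRP40 PAC, chrXI:613933-613962, minus strand: ttgatgattgaaCTCATCgcacttttatac
MRP49 Puf3, chrXI:133678-133707, minus strand: aagtttgttcaTGTATATAtcaaaaaacat
HSP60 Puf3, chrXII:663207-663236, minus strand: ttttattatctTGTAAATAcaatgtgaaaa

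Between 24 and 42 min the share of 350 features rose (12.9% of those tested) and that of 370 fell (13.6%), 720 in all (26.5%), in edgeR's quasi-likelihood F-test (Benjamini-Hochberg adjusted p under 0.05). Scaled by library totals alone, which moves the median log2 change of all features to -0.17, 208 rose and 630 fell. Stress-response, trehalose and glycogen, chaperone, and autophagy and vacuolar protease genes were among those that rose. Cell cycle, histone, ribosomal protein and ribosome assembly genes were among those that fell. The median log2 change was 0.51 for the features that rose, -0.70 for those that fell and -0.03 for all tested. A change of more than 2-fold was found for 34 that rose and 78 that fell. All 3 cultures had the sign of the call for 349 of the 350 and 369 of the 370. Over all 2717 tested features the 3 cultures shared a sign, in either direction, for 1644. The 3 libraries of 42 min lay above all 3 of 24 min for 276 of the features that rose, and below them for 325 of those that fell. Over all tested features these separations occurred in 17.6% and 19.9%. The calls rest on particular cultures: without culture 1 there were 86 higher and 78 lower features, without culture 2 there were 500 and 482, and without culture 3 there were 107 and 120.

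**Figure D1:**
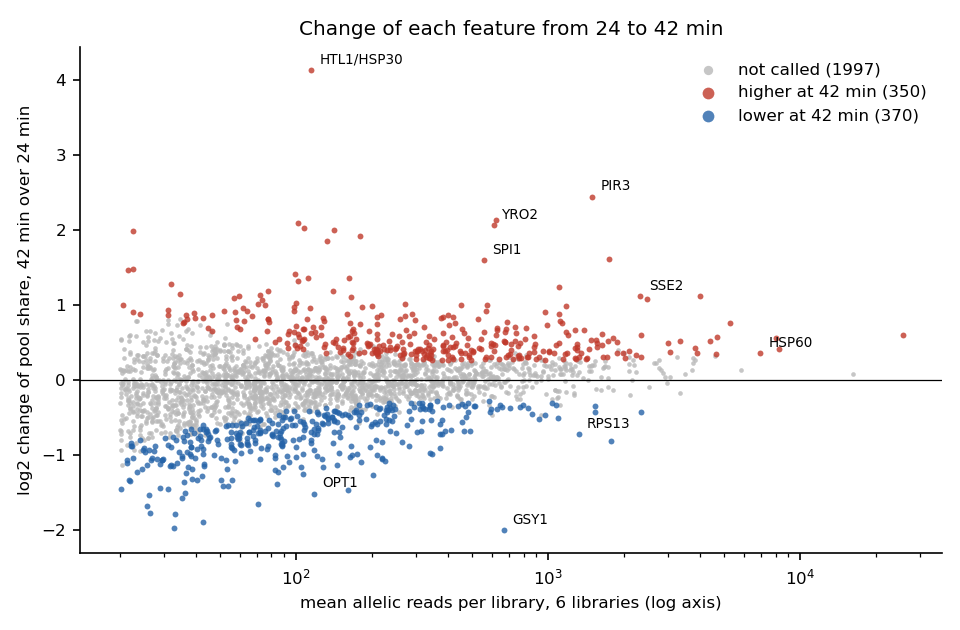
Log2 change of each feature's share (42 min over 24 min, y axis) against its mean allelic reads per library (x axis, log scale), for 2717 features. Red points are the 350 features that rose and blue points the 370 that fell at an adjusted p under 0.05, and HTL1/HSP30 lies apart at 4.13.

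Among features of 1 gene with at least 100 reads per library, the cell wall gene PIR3 had the largest rise. PIR3 encodes a mannoprotein bound covalently to wall glucan. It had 3412, 2470 and 3681 CPM at 42 min in cultures 1 to 3, against 483, 655 and 604 CPM at 24 min. Every library of 42 min was above every one of 24 min, and the log2 change was 2.44 ± 0.16 (adjusted p = 5.68e-05). As a stand-in for the standard error, ± after a log2 change gives the change over the root of F.

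RIE1, a gene for an RNA-binding protein found in stress granules, had 1773, 788 and 1385 CPM at 42 min, against 273, 274 and 307 CPM at 24 min. The groups did not overlap, and the change was 2.13 ± 0.18 (adjusted p = 0.00019). YRO2, which encodes a membrane protein related to the heat shock protein Hsp30, had 1141, 841 and 1689 CPM at 42 min, against 233, 289 and 330 CPM at 24 min. It rose by 2.06 ± 0.15 on the log2 scale (adjusted p = 8.78e-05), and its lowest library of 42 min was above its highest of 24 min. FAT3, needed for fatty acid uptake, had 93.7, 75.9 and 417 CPM at 42 min, against 18.5, 24.3 and 91.1 CPM at 24 min. Its groups overlapped, with culture 3 highest at both times, while each culture rose by a like amount (2.09 ± 0.16, adjusted p = 0.00014).

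BAG7, for a GTPase-activating protein of Rho1, had 173, 158 and 298 CPM at 42 min, against 26.4, 42.3 and 84.9 CPM at 24 min (2.03 ± 0.17). FMP16, for a mitochondrial protein, had 194, 163 and 458 CPM at 42 min, against 25.1, 64.6 and 110 CPM at 24 min (2.00 ± 0.21). Neither pair of groups overlapped. TKL2, for a transketolase of the pentose phosphate pathway, had 271, 124 and 644 CPM at 42 min, against 34.3, 72.0 and 151 CPM at 24 min (1.92 ± 0.27, adjusted p = 0.0019). Culture 2 at 42 min was below culture 3 at 24 min, although TKL2 was higher at 42 min within each culture. NCA3, a gene of the SUN family of wall proteins, had 296, 224 and 267 CPM at 42 min, against 76.5, 57.2 and 83.8 CPM at 24 min (1.85 ± 0.12). PHM7, for a membrane protein, had 2403, 2579 and 4207 CPM at 42 min, against 422, 1171 and 1722 CPM at 24 min (1.61 ± 0.22). NCA3 and PHM7 did not overlap between the times.

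SPI1, for a wall protein induced on entry into stationary phase, had 983, 669 and 1356 CPM at 42 min, against 149, 303 and 591 CPM at 24 min (1.598 ± 0.24). CPA1, for the small subunit of the carbamoyl phosphate synthase of arginine synthesis, had 316, 154 and 158 CPM at 42 min, against 96.3, 75.2 and 65.2 CPM at 24 min (1.35 ± 0.15, adjusted p = 0.00074). YNL195C, of unknown function, had 140, 141 and 239 CPM at 42 min, against 27.7, 60.3 and 124 CPM at 24 min (1.32 ± 0.21). All 3 genes were higher in every library of 42 min.

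GSY1, which encodes the minor isoform of glycogen synthase, had the largest fall of all tested features, and the other falls described next are the largest among features of 1 gene with at least 100 reads per library. It had 404, 243 and 285 CPM at 42 min, against 971, 1203 and 1505 CPM at 24 min, with no overlap (log2 change -1.999 ± 0.19, adjusted p = 0.00046). GSY2, the major isoform, went the other way, with 7418, 5238 and 7727 CPM at 42 min, against 3541, 4563 and 5552 CPM at 24 min (0.58 ± 0.15, adjusted p = 0.021), and its lowest library of 42 min was below its highest of 24 min.

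OPT1, a transporter gene for oligopeptides and glutathione, had 49.3, 78.2 and 80.7 CPM at 42 min, against 197, 181 and 225 CPM at 24 min (-1.51 ± 0.16). HTB2, which encodes histone H2B, had 146, 167 and 109 CPM at 42 min, against 372, 304 and 333 CPM at 24 min (-1.26 ± 0.14). ARO10, for a decarboxylase of amino acid breakdown to fusel alcohols, had 64.1, 82.9 and 70.4 CPM at 42 min, against 156, 213 and 152 CPM at 24 min (-1.25 ± 0.13). None of these 3 genes overlapped between the times. GIN4, for a kinase at the bud neck, had 168, 232 and 118 CPM at 42 min, against 406, 360 and 316 CPM at 24 min (-1.08 ± 0.15). IRC8, for a bud tip protein, had 159, 198 and 134 CPM at 42 min, against 332, 326 and 322 CPM at 24 min (-1.002 ± 0.12). In both, the highest library of 42 min was below the lowest of 24 min.

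The others of these 12 falls were between -1.13 and -1.002. They were MYG1, FET3 (a ferroxidase of iron uptake), SRP40, LEU9 (an enzyme of leucine synthesis), YEH1 (a steryl ester hydrolase) and TOS6 (a wall protein). FET3 overlapped between the times, with 307, 180 and 63.6 CPM at 42 min, against 549, 336 and 199 CPM at 24 min (-1.05 ± 0.15). Culture 3 was lowest at both times, and each culture was lower at 42 min. LEU9 and YEH1 overlapped as well, and each culture was lower at 42 min in both.

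**Figure D2:**
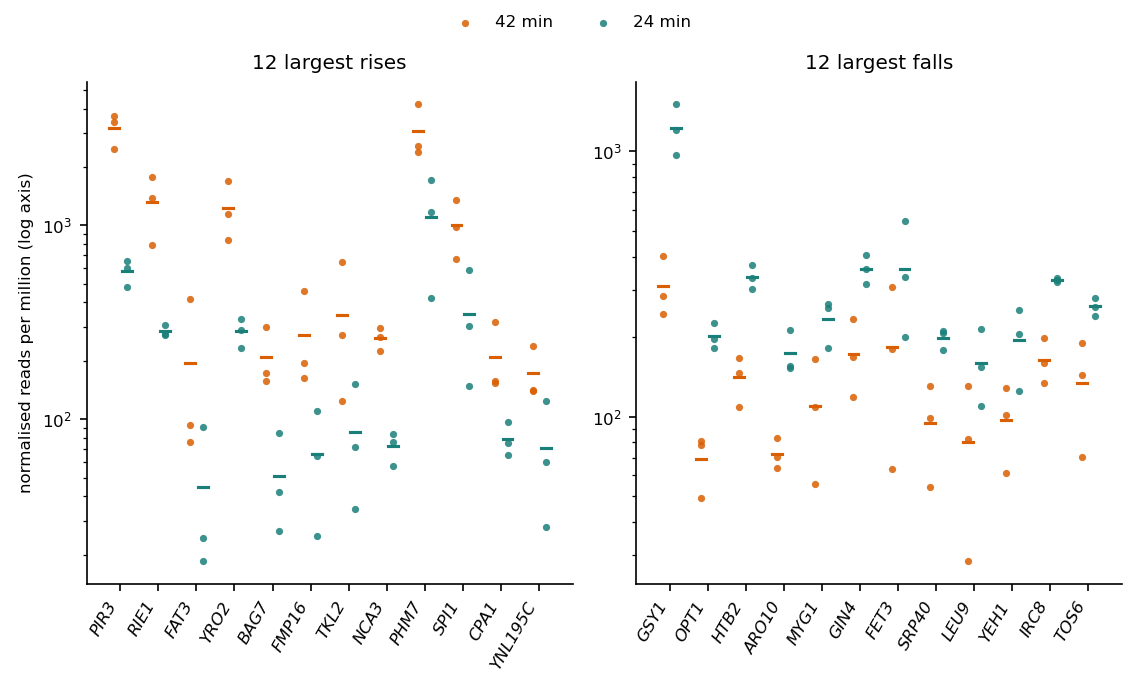
Normalised CPM in each library (y axis, log scale) for the 12 genes with the largest rises and the 12 with the largest falls, 42 min (orange) left of 24 min (green); points are the 3 cultures and bars their means. PIR3 lies between 2470 and 3681 at 42 min and between 483 and 655 at 24 min, while FAT3, TKL2, FET3, LEU9 and YEH1 overlap.

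General stress genes, mostly targets of Msn2/Msn4, were higher in most cases. Of the 21 tested as features of 1 gene (of 40 on the list), 15 rose and 0 fell, against 13.4% higher and 13.7% lower among all 2002 tested features of 1 gene. Their median log2 change was 0.65. Besides YRO2, TKL2, PHM7 and SPI1, the genes that rose included ALD3 (an aldehyde dehydrogenase, 1.24 ± 0.23, with the near-identical copy ALD2), YGP1 (a secreted glycoprotein, 1.08 ± 0.11) and HSP12 (a membrane-stabilising protein). HSP12 had 12251, 9831 and 12574 CPM at 42 min, against 7038, 7919 and 8530.3 CPM at 24 min (0.56 ± 0.12). The summed level of the 21 was 39315, 32811 and 48725 CPM at 42 min, against 20676, 25323 and 29965 CPM at 24 min, with no overlap. The cytosolic catalase gene CTT1 did not pass the test (0.34 ± 0.12, adjusted p = 0.061). Of the other 5 that did not pass, SDS23 was at -0.35 and 4 lay between 0.11 and 0.27. The count was 4 without the replicate block, and it was 9, 19 and 10 without cultures 1, 2 and 3.

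Chaperone genes gave a mixed picture. Of 15 tested genes for cytosolic and nuclear chaperones and cofactors (of 29 listed), 7 rose (46.7%) and 0 fell, with a median of 0.36. The background for this and each list below is the 13.4% higher and 13.7% lower among all tested features of 1 gene. SSE2, an Hsp110 nucleotide exchange factor for Hsp70, had 4512, 3046 and 4222 CPM at 42 min, against 1447, 1853 and 2120 CPM at 24 min (1.11 ± 0.16, adjusted p = 0.0018). BTN2, which sorts misfolded proteins, had 1170, 799 and 899 CPM at 42 min, against 442, 470 and 502 CPM at 24 min (1.00 ± 0.12). Both were higher in every library of 42 min. HSP82 (Hsp90), HSP31, APJ1, OPI10 and STI1 rose by 0.41 to 0.76, with HSP82 uncertain because of its near-identical copy HSC82.

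The disaggregase gene HSP104 (0.26 ± 0.14) and the Hsp70 genes SSA1 (0.09 ± 0.11) and SSA4 did not pass the test. SSA4 had 1667, 837 and 1364 CPM at 42 min, against 1282, 1317 and 1538 CPM at 24 min (-0.15 ± 0.16, adjusted p = 0.53). Culture 1 was higher at 42 min and the others lower. The count of chaperone genes that rose was 3, 10 and 4 without cultures 1, 2 and 3. Of 8 mitochondrial chaperone and protease genes, HSP78, HSP60 and MDJ1 (37.5%) rose (0.62, 0.36 and 0.36), and none did so without culture 1. Of 7 endoplasmic reticulum folding genes CPR5 alone passed (0.36 ± 0.11). This is 14.3%, near the 13.4% higher among all tested features of 1 gene.

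In trehalose and glycogen metabolism, 10 of 15 tested genes rose (66.7%) and 2 fell (13.3%, near the 13.7% of all), with a median of 0.52. Those that rose serve synthesis as well as breakdown. GLC3 is the glycogen branching and GDB1 the debranching enzyme, TSL1 and TPS2 belong to the trehalose synthase complex, and ATH1, NTH1 and NTH2 are trehalases. GAC1, a subunit that directs the Glc7 phosphatase to glycogen synthase, had 65.7, 99.2 and 108 CPM at 42 min, against 17.1, 41.3 and 70.4 CPM at 24 min (1.10 ± 0.23). Culture 1 at 42 min lay below culture 3 at 24 min. GSY1 and PGM1, a phosphoglucomutase (-0.92 ± 0.16), were the genes that fell. The 10 became 3, 12 and 3 without cultures 1, 2 and 3.

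Autophagy and vacuolar protease genes rose in 7 of 11 cases (63.6%, against 13.4% of all), with 0 lower and a median of 0.47. AMS1, the vacuolar alpha-mannosidase, had 424, 364 and 531 CPM at 42 min, against 152, 233 and 263 CPM at 24 min (1.02 ± 0.14, adjusted p = 0.0017). APE1, the aminopeptidase carried to the vacuole with it, had 965, 664 and 1195 CPM at 42 min, against 512, 561 and 668 CPM at 24 min (0.67 ± 0.13). ATG19, the receptor for both cargoes, rose by 0.47, and so did the protease genes PRB1 (0.60), PRC1 (0.56) and PEP4 (0.43) and the membrane protein gene ATG9 (0.61). AMS1 did not overlap between the times, and APE1 overlapped by 1 library. The count was 1, 8 and 1 without cultures 1, 2 and 3.

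**Figure D3:**
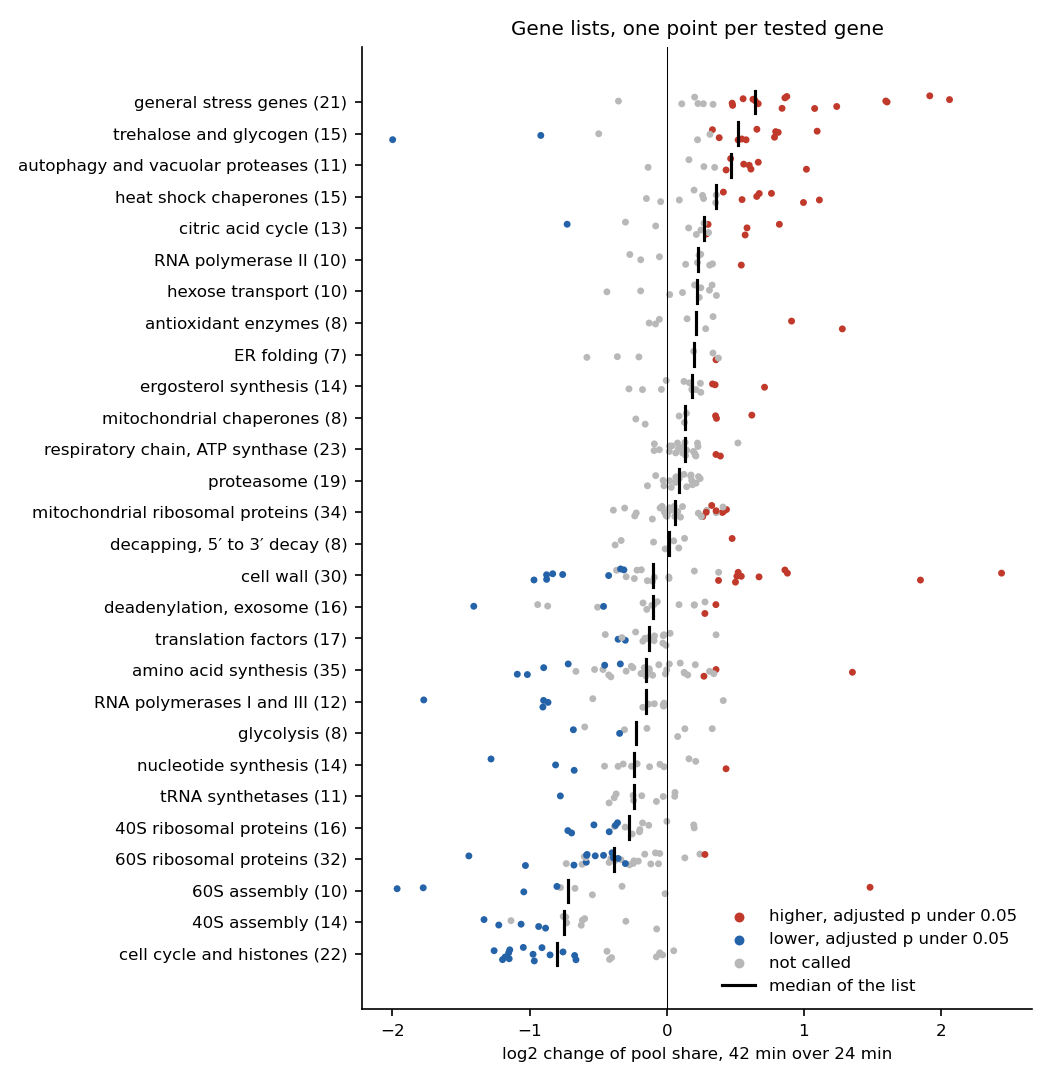
Log2 change (42 min over 24 min, x axis) of each tested gene in the lists with at least 5 tested genes, number in brackets; red rose, blue fell, grey did not pass, and the black bar is the median. General stress genes lie highest, with a median of 0.65, and cell cycle and histone genes lowest, with a median of -0.80.

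Cell wall genes split. Of 30 tested, 10 rose (33.3%, against 13.4% of all) and 8 fell (26.7%, against 13.7%), with a median of -0.10. With PIR3 and NCA3 rose SLT2, the MAP kinase of the cell wall integrity pathway, which had 715, 537 and 662 CPM at 42 min, against 351, 390 and 307 CPM at 24 min (0.86 ± 0.13). RLM1, the transcription factor that Slt2 activates, had 467, 448 and 595 CPM at 42 min, against 326, 364 and 342 CPM at 24 min (0.54 ± 0.11). Further members of the pathway that rose were the sensor gene MTL1 (0.88), ROM2 (0.51), an exchange factor for Rho1, and PTP2 (0.50), a phosphatase. The mannoprotein genes CCW14 and CWP1 and the glucanase gene BGL2 rose as well. Those that fell were UTR2 and CRH1, which link chitin to glucan, SUN4 and SCW11, active in daughter cell separation, EXG1, TIR3, PIR1 and WSC2. WSC2 is a sensor gene of the same integrity pathway, so its members did not all rise. UTR2 had 304, 280 and 229 CPM at 42 min, against 665, 544 and 405 CPM at 24 min (-0.97 ± 0.09), without overlap. PIR1, a relative of PIR3, moved the opposite way from it, with 2595, 2259 and 2309 CPM at 42 min, against 3430.5, 3413 and 2790.3 CPM at 24 min (-0.42 ± 0.10). SLT2, RLM1 and PIR1 did not overlap between the times. The 10 and 8 became 7 and 3 without culture 1, 10 and 9 without culture 2, and 6 and 4 without culture 3.

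Cell cycle and histone genes had the lowest median of the lists, at -0.80, with 14 of 22 lower (63.6%, against 13.7% of all) and 0 higher. They spanned the cycle. The G1 cyclin genes CLN1, CLN2, PCL1 and PCL2 fell (-0.97, -1.15, -1.18 and -0.76), as did WHI5, a repressor of G1 transcription (-1.05), and SWE1, the kinase that restrains mitotic entry (-0.97). Among mitotic genes CDC5, the polo kinase, had 44.4, 71.2 and 55.7 CPM at 42 min, against 175, 131 and 103 CPM at 24 min (-1.20 ± 0.21, adjusted p = 0.0045), without overlap. CDC20, an activator of the anaphase-promoting complex (-1.14), and the cyclin gene CLB3 (-0.85) also fell. Of the histone genes HTB2, HTA2, HHF1 and HTZ1 fell, and HTA2 (copy HTA1) is among those with near-identical copies. Leaving out genes with such copies, 12 of 20 fell. The counts differ between cultures left out, with 5, 13 and 7 lower genes without cultures 1, 2 and 3. CLN3 (0.05) and CDC28 (-0.05), the upstream G1 cyclin and the cyclin-dependent kinase, did not pass the test. The summed level of the list was 3483, 3499 and 3222 CPM at 42 min, against 4765, 4488 and 4215 CPM at 24 min.

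Cytosolic ribosomal protein genes were lower where they passed the test, with 1 exception. Among those of the large subunit, 12 of 32 tested fell and 1 rose (RPL35B, 0.28), with a median of -0.38. Among those of the small subunit 6 of 16 fell and 0 rose, with a median of -0.28. In each subunit 37.5% fell, against 13.7% of all tested features of 1 gene. Of these genes 24 and 12 have near-identical copies to which reads may be divided. RPS13, with no such copy, had 1415, 1309 and 894 CPM at 42 min, against 2270, 1897 and 1727 CPM at 24 min (-0.72 ± 0.10, adjusted p = 0.0019). RPP1A, for an acidic protein of the stalk, had 506, 460 and 323 CPM at 42 min, against 768, 678 and 594 CPM at 24 min (-0.68 ± 0.09). Both were lower in every library of 42 min. RPL9A (-1.03 ± 0.21) and RPS11B (-0.69 ± 0.12), which have near-identical copies, also fell. The medians of the same genes were -0.08 (large) and 0.12 (small) between 0 and 12 min, and -0.82 and -0.73 between 12 and 24 min, an interval that shares the 24 min libraries. The 12 and 6 lower genes became 1 and 2 without culture 1, 16 and 9 without culture 2, and 2 and 2 without culture 3.

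For the assembly of ribosomes few genes remained above the read minimum: 14 of 33 single-gene features for the 40S and 10 of 39 for the 60S subunit. Of the 14, 5 fell (35.7%) and 0 rose, and of the 10, 4 fell (40%) and 1 rose (10%), with medians of -0.75 and -0.72. Among all tested features of 1 gene 13.7% fell and 13.4% rose. LTV1, an export factor of the 40S subunit, had 60.8, 68.9 and 48.8 CPM at 42 min, against 117, 157 and 139 CPM at 24 min (-1.22 ± 0.16). NOG1, a GTPase of 60S assembly, had 9.86, 32.7 and 4.54 CPM at 42 min, against 75.2, 61.4 and 46.6 CPM at 24 min (-1.97 ± 0.40). Neither gene overlapped. YTM1, also of 60S assembly, was the gene that rose, with 24.7, 82.9 and 15.9 CPM at 42 min, against 10.6, 13.8 and 15.5 CPM at 24 min (1.48 ± 0.44, adjusted p = 0.034). The read minimum was set on the mean over both times. YTM1 passed it only through the 42 min libraries, mainly that of culture 2, and NOG1 only through those of 24 min. Both calls thus rest on few reads at the other time. Genes of the 60S list that rose numbered 0, 0 and 1 without cultures 1, 2 and 3, and 0 with DESeq2. Culture 2 stood apart here: the summed level of the 14 genes was 440, 607 and 310 CPM at 42 min, against 853, 750 and 670 CPM at 24 min, and that of the 10 genes was 245, 511 and 204 CPM at 42 min, against 601, 473 and 465 CPM at 24 min. The lower genes numbered 1, 9 and 2 (40S) and 0, 8 and 1 (60S) without cultures 1, 2 and 3. Of 12 genes for RNA polymerases I and III, RPA34, RPC53, RPC19 and RPO31 fell (-1.77 to -0.87), and 0, 5 and 1 did so without cultures 1, 2 and 3.

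Lists of genes for mitochondria differed in how many passed, against 13.4% higher and 13.7% lower among all tested features of 1 gene. Of 34 mitochondrial ribosomal protein genes 7 rose (20.6%) and 0 fell, with a median of 0.06 that turns to -0.09 under library totals. The 7 became 1 under library totals and 0 with DESeq2. MRP49 had 128, 133 and 177 CPM at 42 min, against 94.96, 113 and 119 CPM at 24 min (0.42 ± 0.13, adjusted p = 0.040), and 0 of the 34 rose without culture 1 or without culture 3. MRP8 (0.44), whose place in that ribosome is uncertain, MRPL6, PET123, MRPL36, MRPS9 and MRPL22 were the others. Of 13 genes listed for the citric acid cycle 5 rose (38.5%) and 1 fell (7.69%). Among those that rose were SDH2 of succinate dehydrogenase (0.59 ± 0.10), FUM1 (fumarase, 0.57) and MDH2 (0.82), which encodes a cytosolic malate dehydrogenase. The 5 became 0, 8 and 2 without cultures 1, 2 and 3. Of 23 genes for the respiratory chain and ATP synthase 2 rose (8.70%) and 0 fell, with a median of 0.13 (-0.02 under library totals). They were NDE1 (0.36), an external NADH dehydrogenase, and STF1 (0.39), a regulator of ATP synthase. The 2 became 0, 7 and 0 without cultures 1, 2 and 3. None of 19 proteasome genes passed in edgeR's or DESeq2's test, with a median of 0.09 (-0.05 under library totals). At an unadjusted p under 0.05 in edgeR 3 were higher and 0 lower, and 2 passed without culture 2.

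In central and biosynthetic metabolism, TPI1 (-0.34) and EMI2 (-0.68), a glucokinase relative, were the genes that fell among 8 of glycolysis, with 0 higher. The abundant TDH3 (0.08 ± 0.11) did not pass. Of 35 genes for amino acid synthesis 3 rose (CPA1, CYS3 and ILV2) and 6 fell. These are 8.57% and 17.1%, near the 13.4% higher and 13.7% lower among all tested features of 1 gene. Among the 6 was ARO4 of aromatic amino acid synthesis, with 82.2, 78.2 and 53.4 CPM at 42 min, against 160, 140 and 151 CPM at 24 min (-1.09 ± 0.16). The small subunit genes of ribonucleotide reductase RNR2 (-0.81) and RNR4 (-0.68) and the uridine permease gene FUI1 (-1.28) fell among 14 genes of nucleotide metabolism, and ADE16 rose (0.43). In ergosterol synthesis 3 of 14 rose (ERG11, ERG8 and ERG25) and 0 fell. ERG11, the lanosterol demethylase, had 225, 188 and 164 CPM at 42 min, against 161, 98.5 and 98.3 CPM at 24 min (0.71 ± 0.13). Of 8 antioxidant genes GPX1 (1.28) and TSA2 (0.91), a pair of peroxidases, rose. Without cultures 1, 2 and 3 the lower genes of glycolysis numbered 1, 4 and 0, those of amino acid synthesis 1, 8 and 2 and those of nucleotide metabolism 1, 5 and 1. The higher genes of ergosterol synthesis numbered 1, 4 and 1 without these cultures and the antioxidant genes 0, 4 and 0. With DESeq2, 1 glycolysis gene fell and 0 antioxidant genes rose, and under library totals 4 glycolysis genes fell and 1 antioxidant gene rose.

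Among genes for transcription and decay few passed. Of 10 genes for RNA polymerase II and its general factors SSL2 alone passed (0.54 ± 0.09), and of 8 for decapping and 5′ to 3′ decay DCS2, an inhibitor of the scavenger decapping enzyme (0.48 ± 0.14), alone did so. For deadenylation, the exosome and related factors, 2 of 16 rose (JSN1 and PAN3) and 2 fell. CSL4, an exosome subunit, had 24.7, 50.2 and 22.7 CPM at 42 min, against 93.6, 83.6 and 83.8 CPM at 24 min (-1.41 ± 0.25), without overlap, and PAP2, a polymerase that tags RNA for the exosome, fell as well (-0.46 ± 0.11). Of 17 translation factor genes SUI2 and GCD11, both subunits of the initiation factor eIF2, fell (-0.35 and -0.30), and of 11 tRNA synthetase genes CRS1 did (-0.78). These shares and those of the decay lists are at or below the 13.4% higher and 13.7% lower among all tested features of 1 gene. Without cultures 1, 2 and 3 the lower translation factor genes numbered 0, 3 and 0 and the lower tRNA synthetase genes 0, 4 and 0, and under library totals there were 6 of each and with DESeq2 0. For deadenylation and the exosome 0, 4 and 0 rose and 0, 3 and 1 fell without these cultures, and under library totals 0 rose and 4 fell. Of 10 hexose transporter genes none passed in edgeR's or DESeq2's test, and 1 was higher and 1 lower at an unadjusted p under 0.05.

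Counts of 0 in a direction were read against edgeR's unadjusted p under 0.05 as well. By that measure 0 cytosolic and nuclear chaperone, autophagy, respiratory chain, antioxidant and mitochondrial ribosomal protein genes were lower, and 1 gene each was lower among the mitochondrial chaperone, endoplasmic reticulum folding, general stress and ergosterol genes. In the other direction 0 genes were higher among those for the cell cycle, glycolysis and 40S assembly, and 1 was higher among the small subunit ribosomal protein genes. DESeq2 at an adjusted p under 0.05 gave 0 for each of these. Under library totals 1 gene each was lower among the mitochondrial chaperone, endoplasmic reticulum folding, general stress, antioxidant and ergosterol genes. Without culture 2 the lower genes numbered 1, 1 and 2 for endoplasmic reticulum folding, general stress and ergosterol.

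The share of some features moved back between 12 and 24 min and rose again by 42 min. The largest rise of any feature was that of HTL1/HSP30, which holds 2 genes and a single SNV and was named after its values were seen. HSP30 encodes a plasma membrane heat shock protein. Its feature had 386, 149 and 323 CPM at 42 min, against 18.5, 11.6 and 17.6 CPM at 24 min (log2 change 4.13 ± 0.17, adjusted p = 1.72e-06), with no overlap. These values came from 235, 128 and 284 reads at 42 min, but only 14, 11 and 17 reads at 24 min. The feature thus passed the minimum of 20 reads only through the 42 min libraries. As CPM of library totals its mean was 3.96 ± 0.51 at 0 min, 120 ± 21 at 6 min, 139 ± 13 at 12 min, 57.0 ± 21 at 18 min, 16.7 ± 3.9 at 24 min and 268 ± 105 at 42 min (SD, n = 3 each). The share thus had 2 maxima within the course. The 18 min value of culture 3 came from 6 reads, in a library of 74320 reads.

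RIE1 followed the same order on this scale, with 146 ± 9.5 at 0 min, 496 ± 155 at 6 min, 798 ± 301 at 12 min, 481 ± 53 at 18 min, 300 ± 17 at 24 min and 1235 ± 416 at 42 min. PIR3 rose throughout instead, with 78.3 ± 20 at 0 min, 92.3 ± 10 at 6 min, 152 ± 34 at 12 min, 244 ± 37 at 18 min, 611 ± 90 at 24 min and 3011 ± 480 at 42 min. GSY1 had a single maximum, with 615 ± 514 at 0 min, 1422 ± 327 at 6 min, 1886 ± 243 at 12 min, 1794 ± 348 at 18 min, 1288 ± 264 at 24 min and 293 ± 67 at 42 min.

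**Figure D4:**
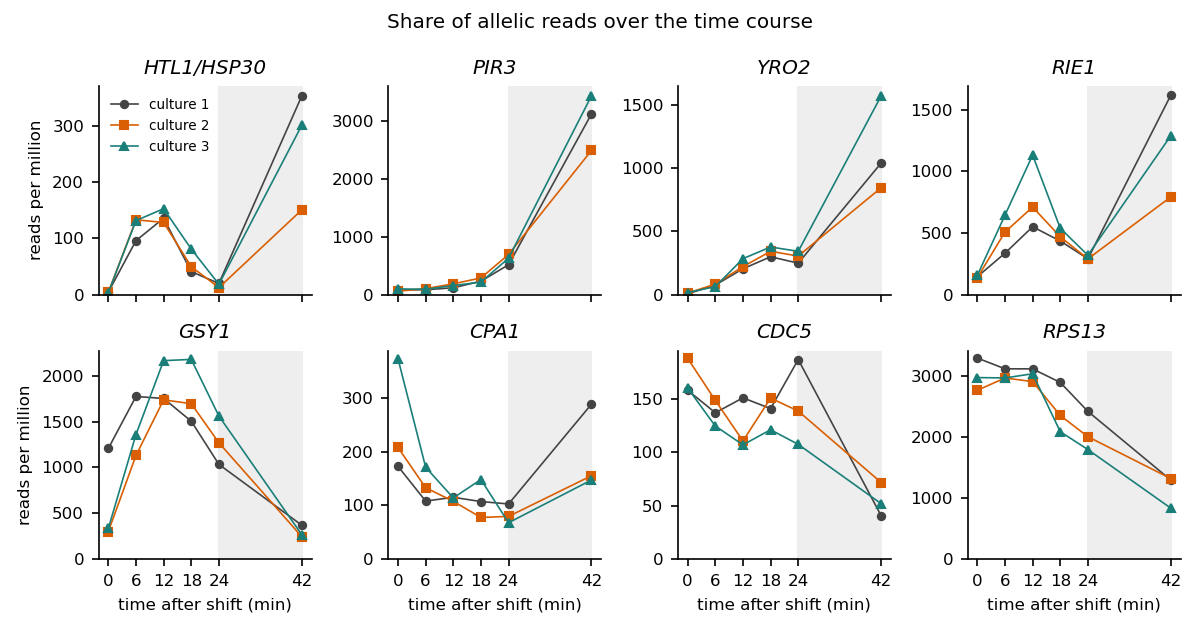
Share of allelic reads (CPM of the library total, y axis, each panel from 0) over the 6 times (x axis, minutes after the shift) for 8 features, 1 line per culture, with the interval from 24 to 42 min shaded. HTL1/HSP30 and RIE1 have an early maximum (at 6 min in culture 2 of HTL1/HSP30, otherwise at 12 min) and are highest at 42 min in each culture, PIR3 and YRO2 are highest at 42 min, and GSY1, CDC5 and RPS13 are lower at 42 than at 24 min.

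The interval from 0 to 12 min shares no library with that from 24 to 42 min, although the cultures are the same. Over the features tested late, 763 rose (28.1%) and 725 fell (26.7%) between 0 and 12 min. Of the 350 that rose late, 259 (74.0%) had risen early, which is 33.9% of the early rises, and 19 (5.43%) had fallen early. Of the 370 that fell late, 214 (57.8%) had fallen early, which is 29.5% of the early falls, and 24 (6.49%) had risen. Across the 2717 features, which are not independent, Spearman's rho between the early and late changes was 0.56. It was 0.29 between the late change and mean reads, and -0.03 each for coding length and the GC content of codon ends over 2001 genes. Features that rose late had a median of 323 reads per library and those that fell 91.8, against 115 for all tested.

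Genes that turned from an early fall to a late rise included CPA1 (-0.93 early, 1.35 late), the amino acid permease gene TAT1 (-2.07 and 0.85), the thiamine transporter gene THI7 (-1.46 and 0.88), ERG11 (-0.96 and 0.71) and RLM1 (-0.54 and 0.54). TAT1 had 416, 411 and 449 CPM at 42 min, against 261, 229 and 220.5 CPM at 24 min. THI7 had 293, 258 and 219 CPM at 42 min, against 146, 131 and 137 CPM at 24 min. Both were higher in every library of 42 min. Genes that turned from an early rise to a late fall included ARO10 (2.73 early, -1.25 late), GSY1 (2.06 and -1.999) and EMI2 (2.81 and -0.68). EMI2 had 564, 304 and 486 CPM at 42 min, against 599, 657 and 864 CPM at 24 min.

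**Figure D5:**
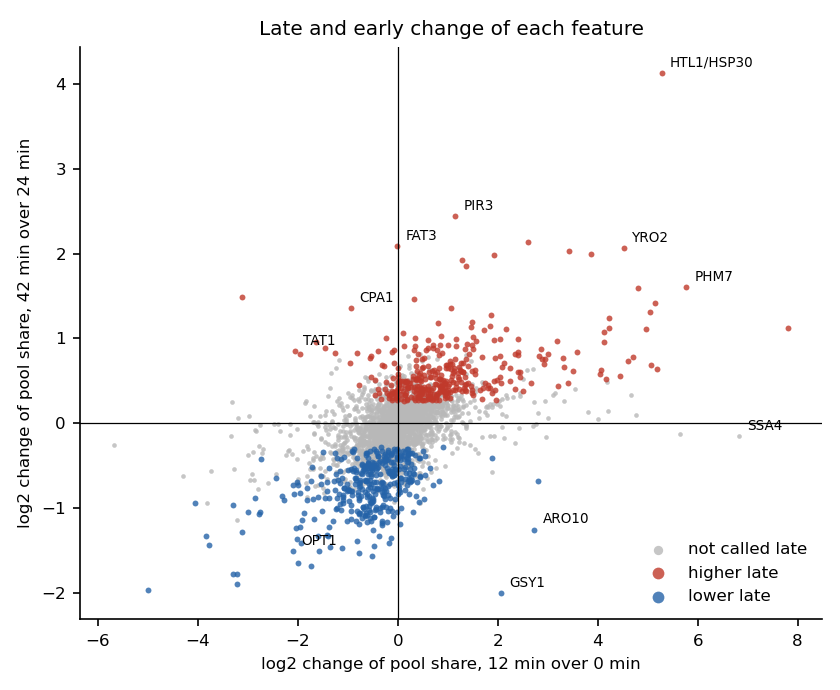
Late change (42 min over 24 min, y axis) against early change (12 min over 0 min, x axis), both as log2 of the pool share, for the features tested late; red rose and blue fell late. GSY1 and ARO10 lie at lower right (early rise, late fall), CPA1 and TAT1 at upper left, and SSA4 at an early change of 6.83 and a late one of -0.15.

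The late and the early interval were also compared in 1 test, of the late change less 1.5 times the early change. This puts both on 18 min at a constant rate. Of 2677 features, 458 (17.1%) had a higher late than scaled early change and 600 (22.4%) a lower one. Across the tested features the SD of the early change was 1.02, before scaling, and that of the late change 0.46. The early changes thus weigh most in the largest differences and in the list counts given below. The 6 largest with a higher late change all had an early fall that slowed or turned. TAT1 (3.96 ± 0.17), THI7 (3.12 ± 0.29) and CPA1 (2.90 ± 0.53) had turned to a rise. The phosphate transporter gene PHO84 (3.75 ± 0.33), the purine-cytosine permease gene FCY2 (3.69 ± 0.20) and SRP40 (3.49 ± 0.31) fell early by 2.72, 2.73 and 3.01 and changed late by -0.35, -0.42 and -1.05. Of these late values FCY2 and SRP40 passed the test and PHO84 did not. The 6 largest with a lower late change had large early rises, led by SSA4 (-10.33 ± 0.39; 6.83 early). The others were FMP48, SOL4, USV1, GID11 and PHM7 (-8.53 to -6.85), of which SOL4, GID11 and PHM7 still rose late. In the lists, 18 of 21 general stress genes and 13 of 15 chaperone genes had a lower late than scaled early change, and 13 of 14 genes of 40S assembly and 9 of 10 of 60S assembly a higher one.

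The elements printed above and 5 others were searched in all 3032 single-gene features, promoter elements on both strands from 250 bases before to 50 bases after the first base of the start codon, and the Puf3 element on the sense strand of the 150 bases after the stop codon. A match is not a binding site. AGGGG occurred in the window of 39.6% of the 268 single-gene features that rose and 16.7% of the 275 that fell, against 23.5% of the 2002 tested and 21.5% of all. It occurred in 14 of the 21 general stress genes. Windows of PIR3, YRO2, PHM7 and NCA3 held none of the letters searched. TTCNNGAA occurred in 9 of the 15 chaperone genes (60.0%), against 13.8% of those that rose, 15.3% of those that fell, 13.8% of the tested and 13.5% of all. The inverse order GAANNTTC, which can share bases with it, occurred in 6 of the 15 and in 11.7% of all.

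GATGAG occurred in 12 of the 14 genes of 40S assembly and 8 of the 10 of 60S assembly, in 14.6% of the features that rose, 20.4% of those that fell, 16.0% of the tested and 18.9% of all. TGTANATA occurred downstream of 33 of the 34 mitochondrial ribosomal protein genes (97.1%). It followed 12.7% of the features that rose and 6.18% of those that fell, against 12.8% of the tested and 11.7% of all. GTAAACA, bound by Forkhead factors in front of mitotic genes, occurred in 4.48% of the features that rose and 10.6% of those that fell, against 6.34% of the tested and 6.43% of all. GCTGG, bound by Swi5, occurred in 18.3% of those that rose, 25.5% of those that fell and 21.8% of the tested. The MluI cell cycle box ACGCGT occurred in 2.24%, 2.91% and 3.15% of the same groups, and the element of Rlm1 in 5.597%, 5.45% and 5.89%. The share of windows with AGGGG was thus above that of the tested features for those that rose, and that with GTAAACA above it for those that fell; no test was made of these shares.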

How the data were processed

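Per the labels' protocols, poly(A) RNA of every aliquot went into its own TruSeq RNA v2 library, a kit without strand information, and all were run together in a single lane (paired ends, 50 bp). The authors' deposited counts are reads per SNV and allele without normalization. Per the file headers, reads were aligned apart to the BY and RM genomes, duplicates were removed (which can lower the counts of the most abundant transcripts) and overlapping genes were joined into 1 feature. The submitters' processing notes name BWA 0.5.9, Picard 1.43 and build sacCer3. A read over several SNVs can be counted at each.

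Counts at the 30497 SNVs of the table of the whole series were summed per feature over both alleles. The change from 24 to 42 min was tested with edgeR 4.0.16 (R 4.3.3; quasi-likelihood F-test, TMM factors, culture as a block, Benjamini-Hochberg adjustment over all 2717 features, threshold 0.05) on 6 libraries, and the late against the early change on 12. DESeq2 1.42.0 and other settings were alternatives. CPM values use a library's total times its TMM factor, except for the time courses and the sums of haploid-specific genes, which use the total alone. The replicate numbers pair the libraries because aliquots of 1 culture were taken at each time, per the labels. Around the mean of each time, the log2 CPM of the 42 and 24 min libraries of cultures 1 to 3 correlated at 0.34, 0.015 and 0.54. Pairs of unlike cultures ran from -0.54 to 0.31. The highest of them, culture 2 at 42 min with culture 1 at 24 min, was above the pair of culture 2. No pair of libraries of 1 time agreed within sampling noise (chi-square over its degrees of freedom between 2.80 and 8.61).

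Gene names and positions come from the R64 annotation. Near-identical copies have at least 90% identity over at least 100 bp in blastn 2.17.0. Named genes are features of 1 gene without such a copy. Per direction they are the 12 with the largest called change, the same sign in 3 cultures and at least 100 reads per library. The 6 largest per direction of the late against early test were taken by the same rule, including the same sign in 3 cultures. Added were the 2 largest called of each list (at least 50 reads) and RPO21. RPL9A and RPS11B, taken from the lists, do have copies. Other genes were named after their values were seen. The members, lists and elements were chosen with earlier results of these data known. The fits were tested on simulated data.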

Additional observations from a re-analysis of the deposited data

Results flagged for a closer look

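Changes from 24 to 42 min that differed from the scaled change from 0 to 12 min are listed here with their values. Large early changes weigh most in this difference. A higher late than scaled early change was found for 458 features and a lower one for 600. In log2 units the difference was 3.96 for TAT1, 3.75 for PHO84, 3.69 for FCY2, 3.49 for SRP40, 3.12 for THI7 and 2.90 for CPA1. It was -10.33 for SSA4, -8.53 for FMP48, -7.13 for SOL4, -7.02 for USV1, -6.89 for GID11 and -6.85 for PHM7. Each of these 12 had the same sign in 3 of 3 cultures, which the rule that picked them required. SSA4 and FMP48 each rest on 1 SNV. With 3 libraries a time, no group was large enough for the check for single outlying samples.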

How the results depend on the processing

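Of 1027 comparisons of a named gene's late change under an alternative setting with its reported value, 854 kept direction and side of the threshold, 168 no longer passed, 1 newly passed (BPL1/RPO21, with library totals) and 4 reversed. SSA4, which did not pass, ran from -0.41 to 0.11 with a replicate left out (0.11 without replicate 2). USV1, which did not pass either, changed by -0.062 with the deepest SNV of each feature and -0.053 with library totals, and ran from -0.030 (without replicate 1) to 0.22 with a replicate left out. All 166 such values of the late against early test kept both. Of the 24 genes with the largest rises and falls, 13 passed under every alternative run.

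The replicate block changed the counts: without it 125 features rose and 172 fell, and 10 of those 24 genes no longer passed. Without it 4 chaperone, 2 trehalose and glycogen and 3 autophagy and vacuolar genes rose and 10 cell cycle genes fell. Counts of features that rose and fell were 172 and 111 with DESeq2, 208 and 630 with library totals (which move the median log2 change of all features to -0.17), 195 and 167 with the deepest SNV, and 36 and 38 against a change of more than 0.5. With at least 100 reads 243 fell, of 1468 tested (16.55%). Leaving out a replicate gave 86 to 500 that rose and 78 to 482 that fell. In the late against early test, features with a higher late change numbered 286 with BY reads, 201 with the deepest SNV, 284 with the early interval of 0 to 6 min and 282 with at least 100 reads (20.29% of 1390), and 275 to 375 with a replicate left out. Those with a lower late change numbered 328 with the deepest SNV and 377 with at least 100 reads (27.12% of 1390), and 388 to 547 with a replicate left out. The cause of these differences was not tested. Features of few reads limit the test: the median feature had 115 reads per library.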
